A study of Mus musculus with 2 samples.

Results

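Small nucleolar RNAs (snoRNAs) are short guide RNAs that direct chemical modification and processing of ribosomal RNA. Genes that carry them in introns are called host genes. Some of these code for protein, and others, the kind described here, are known as long non-coding genes. The 8 hosts described here were chosen by symbol from a table of 16803 genes: Gas5, Snhg1, Snhg3, Snhg5, Snhg6, Snhg8, Snhg11 and Snhg12. The cells were NE4C, an established neural stem cell line cloned from embryonic forebrain of p53-deficient mice. RNA of the untreated line gave the control library, and RNA of cells given HTL (homocysteine thiolactone, a ring form of homocysteine that reacts with lysines of proteins) gave the HTL library. Both cultures shared the line, Eagle MEM and plates coated with poly-L-lysine. The study's protocol for giving HTL to NE4C starved the cells in low serum first, then added HTL in complete medium. Whether this was done for either of these libraries, and the dose and duration of HTL, were not given in the sources used here.

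When a host gene is transcribed, splicing releases its introns, the lariats are opened by a debranching enzyme, and exonucleases trim each intron down to the snoRNA, which is held by a protein core. What is left, the spliced exons, is the transcript that RNA sequencing mostly counts. In many host genes these exons hold no long reading frame, so ribosomes that start on them soon stop and the RNA is taken to nonsense-mediated decay, a pathway that depends on translation. Several hosts, like ribosomal protein genes, start at a run of pyrimidines (a TOP sequence), which places translation of their RNA under control of growth signals. For these reasons the level of a host RNA and the level of its snoRNAs are known to move apart.

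In the HTL library Snhg12 and Snhg1 were higher and Snhg3 was lower, and the other 5 hosts had ratios within 2-fold of control. Scaled to the library total, Snhg12 was 3.65 times its control level, Snhg1 2.31 times and Snhg3 0.485 times. Each condition had 1 library, so no value has a replicate check, and tests and intervals compare these 2 libraries by counting error alone.

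The sequences around the transcription starts of the 3 hosts that passed the call, and of Gas5, are given first, since a pyrimidine run at the start is the feature that ties many hosts to translation. Each runs from 40 bases before to 20 bases after the RefSeq start (GRCm38.p6), and capitals mark a C followed by at least 4 more C or T, found within 10 bases of the start.
Snhg12, chr4:132308638-132308697, plus strand: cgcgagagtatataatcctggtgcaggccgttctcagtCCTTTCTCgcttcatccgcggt
Snhg1, chr19:8723447-8723506, plus strand: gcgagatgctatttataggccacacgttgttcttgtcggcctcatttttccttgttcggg
Snhg3, chr4:132353667-132353726, minus strand: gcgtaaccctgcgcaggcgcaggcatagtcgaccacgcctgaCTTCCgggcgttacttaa
Gas5, its second listed start, chr1:161035126-161035185, plus strand: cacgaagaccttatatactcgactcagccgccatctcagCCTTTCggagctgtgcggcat
RefSeq promoters were matched for 7 of the 8 hosts, with 2 starts for Gas5. Such a run was found at 5 of these 8 starts, those of Snhg12, Snhg3, Snhg5, Snhg8 and the second of Gas5, against 30.7% of all 32851 promoters. In other lists it was found at 7 of 15 starts of other non-coding hosts, 6 of 14 of ribosomal protein hosts, 6 of 9 of neural stem cell markers, 4 of 17 of other protein-coding hosts, 3 of 12 of debranching and trimming genes, 2 of 15 of nonsense-mediated decay factors, 2 of 11 of neuron markers, 9 of 17 of snoRNP genes, 4 of 9 of TOP control genes, 2 of 5 of known decay targets, 3 of 4 of fibroblast markers and 2 of 2 of glia markers. The longest, 8 bases, belonged to Snhg12, which rose. Snhg1 also rose but had, by this definition, a run of only 4 bases near its start and is shown without capitals. Snhg3, which fell, had one of 5 bases.

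Other motifs were sought on both strands of the 300-base promoters. The cyclic AMP response element TGACGTCA was found at the second start of Gas5 only, and in 1.79% of all promoters. The E-box CACGTG (7.15% of all promoters) and the C/EBP-ATF element core TGATGNAA (3.97%) were found at none of the 8 starts. TATAAA, read on the gene's strand only, was found for Snhg3, Snhg5 and Snhg8, and in 8.32% of all promoters. A match is a description of letters and not evidence of a bound site.

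After rounding there were 10350665 control and 9102076 HTL reads. Levels are given as CPM, reads scaled to these totals, and 3 reads, the limit allowed by a count of 0, are 0.290 and 0.330 CPM. Of 13442 genes with at least 10 reads together, 10.8% were called, which here means a log2 ratio of 1 or more in size and an adjusted p no higher than 0.001 (exact binomial test, Benjamini-Hochberg adjustment). Higher calls made 2.81% of genes tested (378) and lower calls 7.98% (1072). Over all genes tested the log2 ratio had a median of -0.14, and it was -0.0076 with TMM scaling, -0.0011 with the median of ratios and -0.044 with the upper quartile. Those scalings gave 552 higher and 800 lower, 559 and 788, and 498 and 860 calls. The neural stem cell marker Nes had 1617 control and 1365 HTL reads, and 3 of 8 markers tested were lower (Sox1, Sox2 and Vim). Vim lost its call under the 3 other scalings, Sox1 (48 and 12 reads) with variation of 0.1 assumed between cultures, and both with the ratio of FPKM + 1, where only Sox2 was called. The glial marker Gfap had 2 control and 0 HTL reads. Summed over 9 stem cell markers, levels were 612 and 478 CPM. The 9 neuron markers summed to 140 and 144 CPM, but their median log2 ratio was -0.60, with 5 intervals below 0, 2 above 0 and 1 lower call, Dcx (88 and 29 reads, log2 ratio -1.40), which was not called with the ratio of FPKM + 1 (-0.53). Sums were 95.1 and 97.9 CPM for the 4 glia markers and 16.0 and 31.2 for the 6 fibroblast markers, with Thy1 called higher (80 and 193 reads). What these differences contribute to the results below was not tested, and a change in RNA per cell and in the make-up of the culture cannot be told apart.

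Of the 8 hosts, all of which had at least 10 reads, 2 were called higher and 1 lower, beside 2.81% and 7.98% of all genes tested. Under the 3 other scalings 2 were called higher and 0 lower. The 95% counting interval of the log2 ratio lay above 0 for 4 hosts (Snhg12, Snhg1, Gas5 and Snhg8), where 23.2% of all genes tested did so, and below 0 for 2 (Snhg3 and Snhg5), where 36.2% did so. The place of Snhg5 rests on the scaling to library totals. With scaling to library totals the interval held 0 for Snhg6 and Snhg11. The median over the 8 was 0.22; it was 0.35 with TMM, 0.36 with the median of ratios and 0.081 relative to bins of gene length. Summed, the hosts had 5005 control and 6817 HTL reads, which is 484 and 749 CPM.

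**Figure D1:**
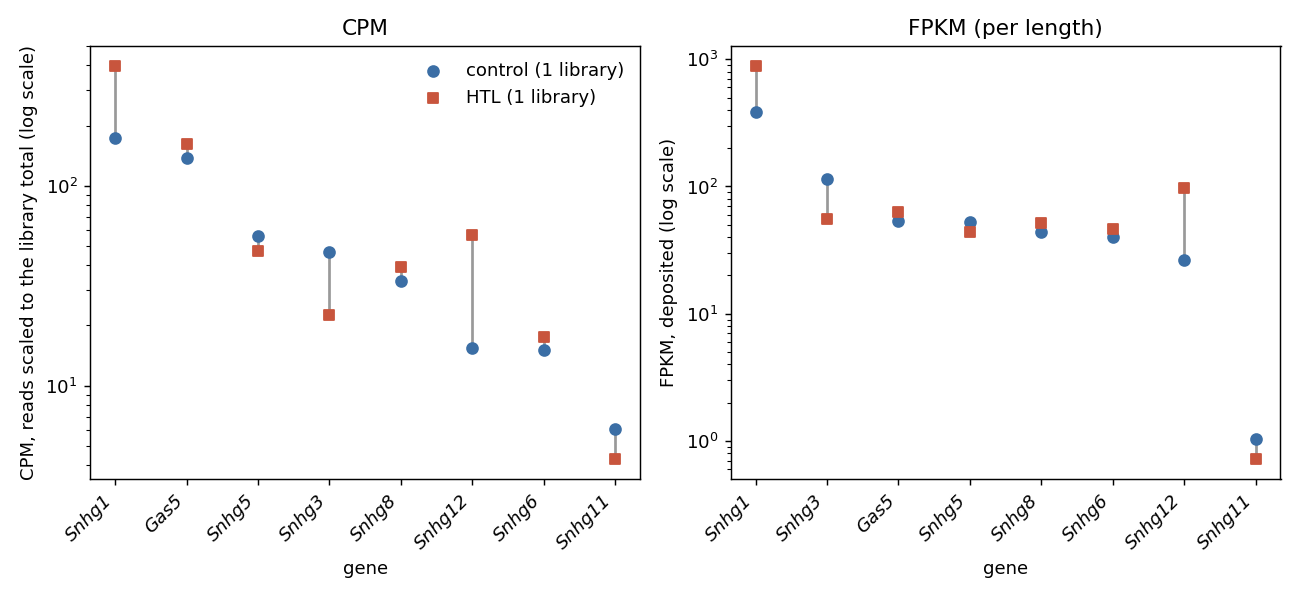
Level of each host in the control (circles) and HTL (squares) library, in CPM (left) and in deposited FPKM (right), both on log axes, with hosts ordered by control level. The lines open widest for Snhg12 (15.5 to 56.6 CPM), Snhg1 (173 to 399) and Snhg3 (46.5 to 22.5).

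Snhg12 (gene ID 100039864) hosts 4 annotated snoRNAs on chromosome 4. It had 160 control and 515 HTL reads, or 15.5 and 56.6 CPM. Its FPKM was 26.7 and 97.4. The log2 ratio was 1.87 (95% interval 1.61 to 2.14) with an adjusted p of 1.76e-53 by the exact binomial test, which put it at percentile 99.0 of genes tested. Per length it went from the seventh place among the 8 hosts to the second, and from rank 2780 to rank 743 among all genes of the table.

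Snhg1 (gene ID 83673), the host of the U22 snoRNA and of 7 others on chromosome 19, had the highest CPM and deposited FPKM of the 8 in both libraries. It had 1792 control and 3634 HTL reads (173 and 399 CPM), and its FPKM was 387 and 891. The log2 ratio was 1.21 (1.12 to 1.29), with an adjusted p of 8.42e-195 by the exact binomial test. Its interval did not overlap that of Snhg12, which rose more. Snhg1 alone supplied 35.8% of control and 53.3% of HTL reads of the 8 hosts, so most of the rise in their summed level was its own.

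Snhg3 (gene ID 399101), the host of the U17 snoRNAs, which act in ribosomal RNA cleavage rather than modification, moved the other way. It had 481 control and 205 HTL reads, or 46.5 and 22.5 CPM, and its FPKM was 114 and 55.2. The log2 ratio was -1.04 (-1.29 to -0.81), with an adjusted p of 2.11e-18 by the exact binomial test. This value sat near the cutoff of 1, and under TMM, the median of ratios and the upper quartile it was -0.91, -0.91 and -0.95, which is no call. Snhg3 and Snhg12 lie on the same stretch of chromosome 4 on opposite strands, and their intervals were on opposite sides of 0.

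Gas5 (gene ID 14455), which hosts C/D box snoRNAs and is known to accumulate when growth stops and translation is blocked, had 1427 control and 1481 HTL reads. These are 138 and 163 CPM, with FPKM of 53.8 and 63.4. The log2 ratio was 0.24 (0.13 to 0.34) with an adjusted p of 2.63e-05 by the exact binomial test, short of the cutoff on size. It was a small difference measured on many reads.

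Snhg8 (gene ID 69895), with 1 snoRNA, had 347 control and 357 HTL reads, for a log2 ratio of 0.23 (0.0092 to 0.44). Snhg6 (gene ID 73824), also with 1 snoRNA, had 156 and 159 reads, for a log2 ratio of 0.21 (-0.11 to 0.54). Their adjusted p values by the exact binomial test were 0.0651 and 0.271. With TMM the log2 ratios of Snhg8 and Snhg6 were 0.36 and 0.34, with adjusted p values by that test of 0.00265 and 0.0631. Scaled to library totals, both intervals reach from about 0 to values below the cutoff, so rises of 2-fold were outside them.

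Snhg5 (gene ID 72655), which hosts 2 U50 snoRNAs on chromosome 9, had 579 control and 427 HTL reads, and its log2 ratio was -0.25 (-0.44 to -0.071). The adjusted p by the exact binomial test was 0.0123. Under TMM, the median of ratios and the upper quartile its log2 ratio was -0.12, -0.12 and -0.16, and the adjusted p of that test 0.260, 0.285 and 0.129. Snhg11 (gene ID 319317), which hosts SNORA71 copies and is best known from neurons, was the least abundant, with 63 and 39 reads and FPKM of 1.03 and 0.72. Its log2 ratio was -0.50 (-1.12 to 0.092; adjusted p 0.142 by the exact binomial test), an interval wide enough to hold no change as well as a 2-fold fall.

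Per length, as FPKM, the control library ordered the hosts as Snhg1, Snhg3, Gas5, Snhg5, Snhg8, Snhg6, Snhg12 and Snhg11. In the HTL library the order was Snhg1, Snhg12, Gas5, Snhg3, Snhg8, Snhg6, Snhg5 and Snhg11. Among neighbours in the control order, the counting intervals overlapped for Gas5 (51.1 to 56.7) and Snhg5 (48.3 to 56.9). They also overlapped for Snhg5 and Snhg8 (39.5 to 48.9), and for Snhg8 and Snhg6 (34.0 to 46.8). In the HTL library they overlapped for Gas5 (60.2 to 66.7) and Snhg3 (47.9 to 63.2), Snhg3 and Snhg8 (46.2 to 57.0), Snhg8 and Snhg6 (39.3 to 54.0), and Snhg6 and Snhg5 (39.9 to 48.3). All other neighbours in either order had intervals that did not overlap.

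The order also depended on which transcript was taken as the length of a gene. Gas5 was given 2554 bases in the table, near the longest of its 25 GENCODE transcripts (346 to 2556 bases, median 629). Snhg1 was given 476 bases, while its 2 GENCODE transcripts have 2339 and 2719. Divided by the kilobases of the median GENCODE transcript, the CPM of Gas5 was 219 in control and 259 in HTL, that of Snhg1 68.5 and 158, and that of Snhg3 106 and 51.5. On that scale Gas5 stood above Snhg1 in both libraries, and Snhg3 above Snhg1 in control. The log2 ratio of a gene between libraries does not use its length.

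Log2 ratios moved with gene length in these libraries. In the shortest of 10 equal bins of length (67 to 1180 bases) the median was 0.14, and in the longest (6190 bases and over) it was -0.38. Of the hosts, Snhg1, Snhg3, Snhg5, Snhg6, Snhg8 and Snhg12 lie in the shortest bin, Gas5 in the fifth and Snhg11 in the ninth. Relative to the median of their own bin, Snhg12 stood at 1.73, Snhg1 at 1.07, Gas5 at 0.37, Snhg8 at 0.088, Snhg6 at 0.074, Snhg11 at -0.22, Snhg5 at -0.39 and Snhg3 at -1.18. The 3 calls were the same on this scale, and the small positive values of Snhg6 and Snhg8 shrank to near 0.

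**Figure D2:**
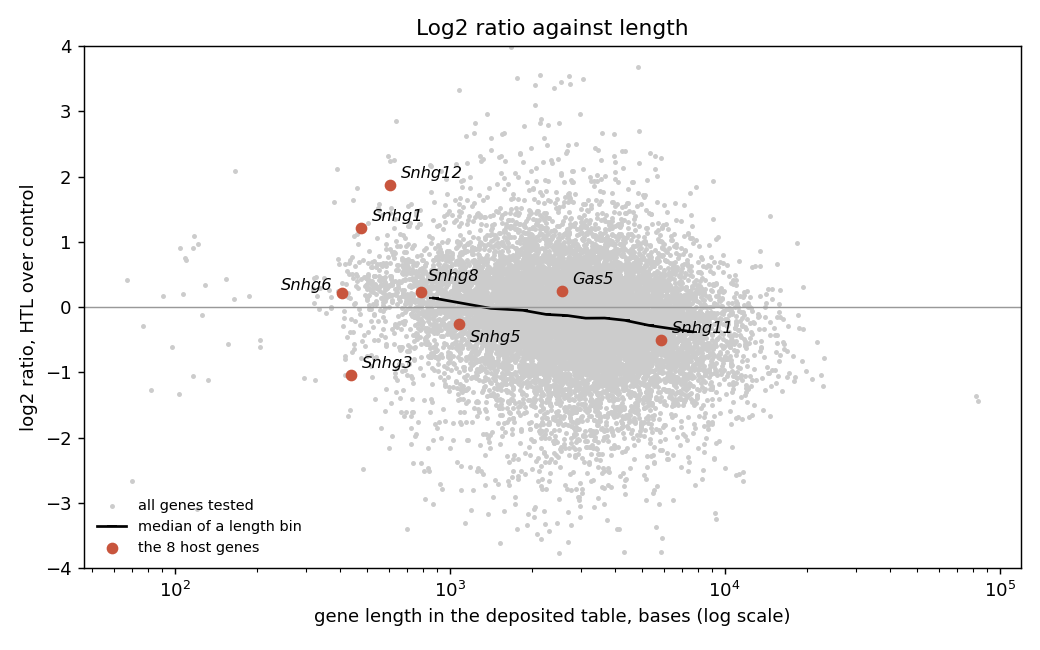
Log2 ratio of HTL over control for each gene tested (grey) against its length in the table in bases, on a log axis, with the 8 hosts in red; the black line joins the medians of 10 length bins. The line falls from 0.14 to -0.38, Snhg12 and Snhg1 lie above it and Snhg3 below it; 59 genes beyond 4 in either direction are not drawn.

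The position of each host was taken from GENCODE on NCBIM37, the genome the submitters' processing notes name as mm9. Gas5 is at chr1:162964553-162968670 on the plus strand with 9 snoRNAs inside it. Snhg1 is at chr19:8797986-8800932 (plus strand, 8 snoRNAs), Snhg12 at chr4:131864593-131866939 (plus strand, 4) and Snhg3 at chr4:131903929-131909601 (minus strand, 2). Snhg5 is at chr9:88415894-88417721 (minus strand, 2) and Snhg11 at chr2:158201374-158211881 (plus strand, 2), where Snhg11 is typed as protein coding. Snhg6 and Snhg8 were matched in RefSeq only, by name.

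Some of these exons are shared. GENCODE places 135 of the 986 exon bases of Snhg3 in exons of Rcc1, a gene on the same strand whose span covers nearly all of Snhg3 and that encodes a chromatin-bound exchange factor of Ran, and 705 in a non-coding gene on the opposite strand, Gm17300, which was not analysed here. A further overlap is with Snora73a, which shares 159 of them. GENCODE exons, taken over all transcripts of a gene, touch every snoRNA inside Gas5 and Snhg1, 3 of 4 inside Snhg12, 1 of 2 inside Snhg3 and Snhg11, and 0 of 2 inside Snhg5. The lengths in the table show that other transcript models were counted, at least for Snhg1, so how many reads these overlaps touch was not tested. Whether counting used strand was not given in the sources used here, and the Snhg3 value is uncertain to that extent.

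The snoRNAs themselves gave few reads. The table held 67 rows named as snoRNAs or small Cajal body RNAs, with 384 control and 430 HTL reads in all. Of these, 14 had at least 10 reads and 1 was called, where 10.8% of all genes tested were. The called row was Snora65 (90 and 169 reads), which is carried by Rpl12 and not by any of the 8 hosts. It is named because it was the only call.

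Of the snoRNAs carried by the 8 hosts, 6 had a row and 3 had enough reads to test. Their sequences from NCBIM37 are shown because they are the RNAs the hosts are known for. Snord22 lies in Snhg1, and capitals mark its D box, CTGA. Snora73a and Snora73b both lie in Snhg3, and capitals mark the 7 positions of 205 at which they differ (96.6% identity).
Snord22, chr19:8800356-8800481, plus strand: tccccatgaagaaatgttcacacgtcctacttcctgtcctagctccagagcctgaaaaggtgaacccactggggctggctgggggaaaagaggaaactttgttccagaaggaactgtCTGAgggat
Snora73a, chr4:131908690-131908894, minus strand: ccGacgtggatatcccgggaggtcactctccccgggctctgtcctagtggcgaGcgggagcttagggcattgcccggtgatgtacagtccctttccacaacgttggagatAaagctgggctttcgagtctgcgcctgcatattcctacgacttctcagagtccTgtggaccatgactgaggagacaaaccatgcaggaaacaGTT
Snora73b, chr4:131908237-131908441, minus strand: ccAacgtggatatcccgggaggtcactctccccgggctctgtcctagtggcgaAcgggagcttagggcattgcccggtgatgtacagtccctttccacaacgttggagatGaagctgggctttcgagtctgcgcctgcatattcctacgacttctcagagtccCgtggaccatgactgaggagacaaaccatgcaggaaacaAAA

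Snord22 had 53 control and 43 HTL reads, for a log2 ratio of -0.11 (-0.73 to 0.49). That interval does not reach the interval of its host Snhg1 (1.12 to 1.29), and under TMM and the median of ratios the value for Snord22 was 0.014 and 0.020. All 126 annotated bases of Snord22 lie in GENCODE exons of Snhg1. Whether its reads came from the snoRNA or from RNA of the host was not tested, so they are not a measured snoRNA level. Snora73b had 26 and 16 reads, for a log2 ratio of -0.50 (-1.51 to 0.44). Snora73a had 16 and 9 reads, for a log2 ratio of -0.62 (-2.00 to 0.62). Both intervals hold the value of their host Snhg3, and 0, and since the pair is nearly identical the counting had split reads between them (estimates of 26.16 and 15.84 in the control library). Snord47 of Gas5 (2 and 0 reads), Snora16a of Snhg12 (3 and 0) and Snora61 of Snhg12 (1 and 1) were at or under the floor.

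The genes next to the hosts were read for comparison. Slc3a2, the heavy chain of several amino acid exchangers of the cell surface, starts 126 bases from Snhg1 on the opposite strand. It had 3091 control and 7946 HTL reads, for a log2 ratio of 1.55 (1.49 to 1.61), so both genes of this divergent pair were called higher. On the other side of Snhg1, Wdr74, a ribosome assembly factor, had 1854 and 1459 reads, and its log2 ratio was -0.16 (-0.26 to -0.060).

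Zbtb37, a zinc finger gene, overlaps the start of Gas5 by 428 bases on the opposite strand. It had 91 control and 31 HTL reads, for a log2 ratio of -1.35 (-2.01 to -0.77), and was called lower while Gas5 stood at 0.24. With the ratio of FPKM + 1 the value for Zbtb37 was -0.80, which is no call, and it also lost the call at an assumed coefficient of variation of 0.1.

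Around Snhg3, the overlapping gene Rcc1 had 942 and 628 reads, with its log2 ratio at -0.40 (-0.55 to -0.25), and Phactr4 had 598 and 390 reads, with its log2 ratio at -0.43 (-0.62 to -0.24). Both intervals lay below 0 and above that of Snhg3. Beside Snhg12, Taf12 had a log2 ratio of 0.019 (-0.23 to 0.27) and Trnau1ap, which lies 738 bases away, 0.18 (-0.065 to 0.43), and neither was called. The nearest tested genes of the other 4 hosts were not called: Syncrip (-0.15) and Zfp949 (0.21) around Snhg5, Mcmdc2 (-0.42, overlapping it in RefSeq) and Tcf24 (0.36) around Snhg6, Mettl14 (-0.56) and Ndst3 (-0.97) around Snhg8, and Snhg17 (0.30) and Ralgapb (-0.26) around Snhg11.

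Among 14 other non-coding hosts, 11 had at least 10 reads, of which 2 were called higher and 2 lower, beside 2.81% and 7.98% of all genes tested. Snhg16 had 143 control and 493 HTL reads, for a log2 ratio of 1.97 (1.70 to 2.25), and Zfas1, transcribed head to head with Znfx1, had 589 and 1426 reads, for a log2 ratio of 1.46 (1.32 to 1.60). Both are listed in the table under older symbols, 1810032O08Rik and Zfos1. The interval of Snhg16 overlapped that of Snhg12, while that of Zfas1 lay between those of Snhg1 and Snhg12.

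Snhg14, the long imprinted transcript that carries the Snord116 and Snord115 clusters, had 915 control and 173 HTL reads, for a log2 ratio of -2.21 (-2.46 to -1.98). Snhg4 had 301 and 95 reads, for a log2 ratio of -1.47 (-1.83 to -1.14). Snhg14 fell more than Snhg3 did, and the intervals of Snhg4 and Snhg3 overlap. The other 7 tested had log2 ratios from -0.42 for Snhg7 to 0.39 for Snhg18, and in between stood Snhg20 (-0.40), Dancr (-0.36), Snhg10 (0.29), Snhg15 (0.29) and Snhg17 (0.30). Of these 7, the interval of Snhg17 alone (0.11 to 0.49) left out 0. Snhg9 (2 and 2 reads), Meg3 (1 and 3) and Rian (1 and 2) were at or under the floor, and the median of the 11 was 0.29.

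**Figure D3:**
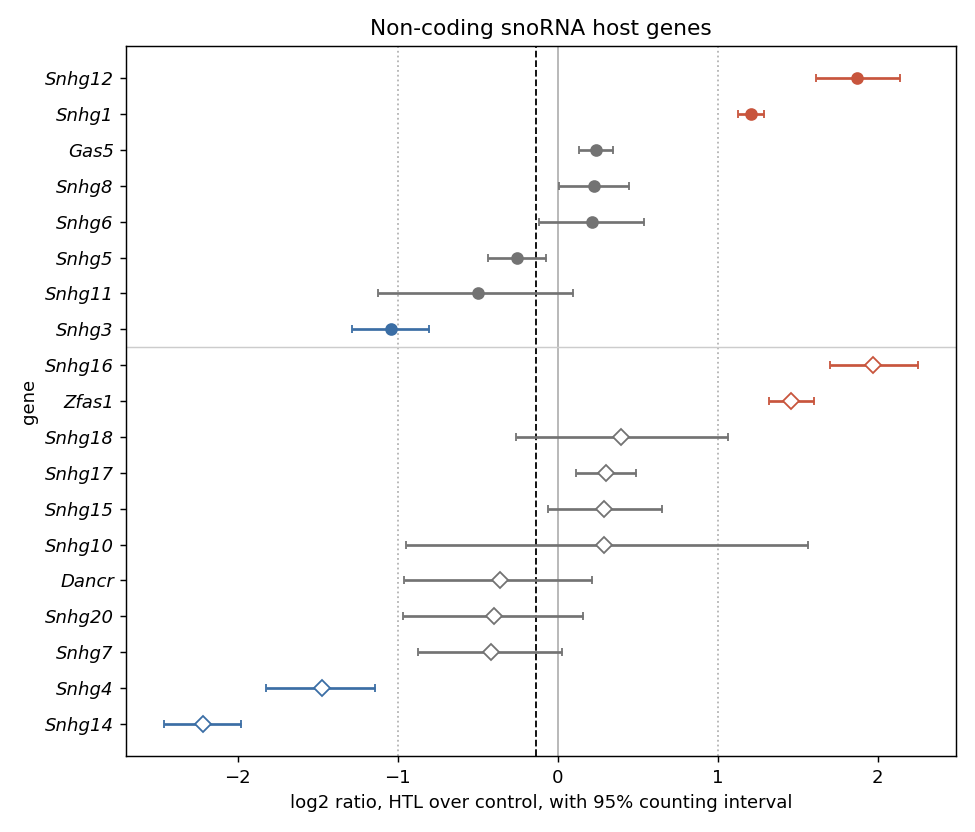
Log2 ratio of HTL over control with its 95% counting interval for the 8 hosts (filled circles) and 11 other non-coding hosts (open diamonds), 1 library a condition; red marks genes called higher, blue genes called lower, dotted lines the cutoffs at 1 and -1, and the dashed line the median of all genes tested. In both groups values run from a fall past -1 to a rise of nearly 2, from -1.04 to 1.87 and from -2.21 to 1.97.

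Hosts that code for protein were counted next. Of 24 ribosomal protein genes that carry snoRNAs, 0 were called by the exact binomial test, where 10.8% of all genes tested were. Yet 23 had intervals above 0, and the median was 0.36, with a range from -0.084 (Rpl21) to 0.87 (Rps20). Rpl21 lay above 0 under the 3 other scalings (0.046 with TMM), and Rps20 passed the cutoff under the median of ratios (1.01) and relative to its length bin (1.04). With no cutoff on size, that test called all 24, with 23 of them higher, where 38.6% of all genes tested were called and 14.5% were higher. These shares are not a like comparison, because the genes tested include ones with far fewer reads. The 24 had from 3016 (Rps20, control) to 46688 reads (Rpl4, HTL) in a library. At such depth Rpl21 was called lower at -0.084. Relative to the medians of their length bins, the median of the 24 was 0.28. Of 20 other protein-coding hosts 1 was called, and it was lower, where 10.8% of all genes tested were called and 7.98% were lower. It was Rbmx, an RNA-binding splicing protein, with 733 and 265 reads and a value of -1.28 on the log2 scale (-1.49 to -1.08). The median of the 20 was -0.17. Under the 3 other scalings 2 were called, with Taf1d, a subunit of an RNA polymerase I factor, the higher one (1.09 with TMM).

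The genes that act on hosts and snoRNAs were counted against the same 10.8% of all genes called, a share that gives few calls in lists this small. Of 18 genes of the snoRNP core and its assembly, 0 were called, and the median was -0.042, or 0.088 with TMM. Fbl, the methyltransferase of C/D box particles, had a log2 ratio of -0.0077 (-0.077 to 0.062), above 0 under the 3 other scalings, and Nop56, a core protein whose gene is itself a host, -0.66 (-0.73 to -0.60). Of 12 genes of debranching and trimming, 0 were called, with a median of -0.24, or -0.11 with TMM. Their intervals lay below 0 for 7 and above 0 for 3, and their values ran from -0.82 to 0.71. The highest was Dbr1, the debranching enzyme, with 626 and 899 reads and a value of 0.71 on the log2 scale (0.56 to 0.86), short of the cutoff. These 3 genes, Rpl21, Rps20, Taf1d and the markers Nes, Sox2 and Vim were named for their roles or as extremes after their values had been seen.

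Of 18 nonsense-mediated decay factors, 1 was called: Dhx34, a helicase that works with Upf1, had 116 and 43 reads and a value of -1.24 on the log2 scale (-1.79 to -0.73). It lost the call with the ratio of FPKM + 1 (-0.78) and at an assumed coefficient of variation of 0.1. The median of the 18 was -0.098, or 0.032 with TMM. The 5 genes listed because their transcripts are known targets of this decay, Atf4, Atf3, Ddit3, Gadd45a and Gadd45b, were each called higher, with a median of 2.15. Of all genes tested 2.81% were called higher. The list was chosen with earlier results of these data known, so its count of calls is not a test of decay. The largest rise was that of Gadd45a, a growth arrest gene, which had 19 and 109 reads and a value of 2.67 on the log2 scale (1.99 to 3.49). All 5 are also genes of the integrated stress response or of growth arrest, so slower decay and more transcription cannot be told apart here. Of 10 genes that control translation of TOP transcripts, 0 were called and the median was -0.24, or -0.11 with TMM.

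**Figure D4:**
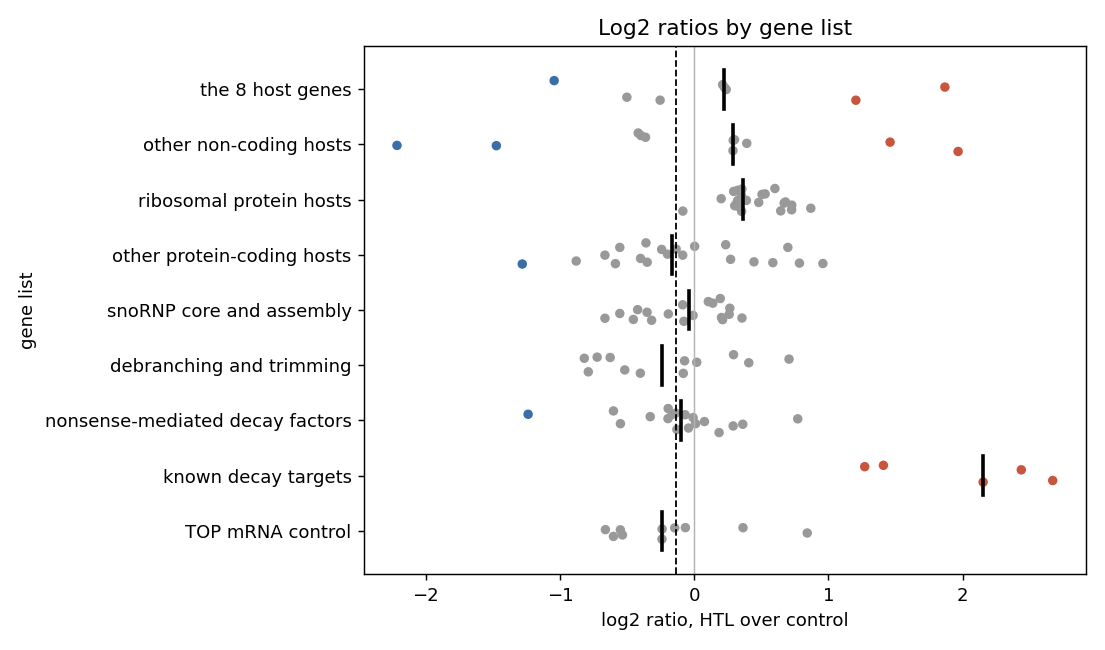
Log2 ratio of HTL over control of each gene tested, by list (rows); points are genes, red called higher, blue called lower and grey not called, black bars are list medians and the dashed line the median of all genes tested (-0.14); points are spread vertically for legibility. The non-coding hosts spread widely on both sides of 0, the ribosomal protein hosts cluster around 0.36 and the 5 known decay targets lie between 1.27 and 2.67.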

How the data were processed

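The data were 1 control and 1 HTL library of NE4C total RNA, grouped by sample title. Per the study's methods and the deposited table, the authors mapped clean reads and made estimated counts per gene with RSEM, which splits reads between similar genes and leaves fractional values. The authors scaled the deposited FPKM to transcript length and library size. The deposited log2 ratio, p-value and FDR columns hold the authors' own comparison and were not used. The submitters' processing notes name mm9; mapper, versions, annotation release and use of strand are not given in the sources used here.

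Estimated counts were rounded to whole reads. Genes with 10 or more reads over the pair of libraries were compared with a two-sided exact binomial test against the library totals (SciPy 1.17.1), Benjamini-Hochberg adjusted over all 13442 genes. The cutoffs on adjusted p (0.001) and log2 ratio (1) are those of the study. For log2 ratios 0.5 read was added, and 95% intervals are Clopper-Pearson for ratios and exact Poisson for FPKM. Reads are not independent molecules, so intervals and floors cover counting error only. Neither DESeq2 nor the quasi-likelihood test of edgeR could be fitted, as there were no replicates. Alternatives (edgeR 4.0.16 scalings, filters, added reads, FPKM + 1, no cutoff on size, edgeR's exact test with assumed variation, length bins) are given in the closing section. The test was checked on data simulated with counting error alone, a check that does not cover error between cultures.

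Genes named were the 8 hosts, all other non-coding hosts measured, the nearest gene on each side of a host (1 is not reported here), and from each other list the called members with the largest rise and fall. The hosts, lists and tests were chosen with earlier results of these data known. Sequences came from NCBIM37 and RefSeq.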

Additional observations from a re-analysis of the deposited data

How the results depend on the processing

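No paired analysis was possible because control and HTL were 1 library each, and none could be left out. Over 12 alternatives, 86 of 96 values of the 8 hosts kept direction and call and 0 changed direction. Snhg1 and Snhg12 lost the call only at an assumed coefficient of variation of 0.2 or 0.4, and Snhg3 also under the 3 other scalings. Gas5 was called only with no cutoff on size. The count of hosts called was 3; it was 2 under the 3 other scalings, 4 with no cutoff on size, and 0 at an assumed coefficient of variation of 0.2, likewise 0 at 0.4, in edgeR's exact test, where the adjusted p of Snhg12 was 0.0020 and 1.0.

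The count of genes called (1450) became 816 with the ratio of FPKM + 1, 5195 with no cutoff on size, 120 at a coefficient of variation of 0.2 and 6 at 0.4. Calls in the other lists (16) became 90 with no cutoff on size, 4 at 0.2 and 0 at 0.4. Relative to length bins, 556 calls were higher and 740 lower. Among 48 other named genes, 14 of 568 values changed direction. They were, under TMM, the median of ratios and the upper quartile in turn, Rpl21 (0.046, 0.052 and 0.0090), Fbl (0.12, 0.13 and 0.086) and Nes (0.071, 0.077 and 0.034), Snord22 under the first 2 (0.014 and 0.020), and, relative to their length bins, Syncrip (0.021), Ralgapb (0.12) and Nes (0.22). The causes were not tested. With 1 library a condition, the error between cultures, on which the calls depend most, was not measured, and the snoRNAs rest on few reads.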
